A study of Mus musculus with 6 samples.

Results

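The 6 libraries of whole mouse ovary fell into 2 sets of 3 that cut across the study's treatment labels, a luteal-high set and a follicle-high set. The sets were chosen by their levels of Star and Inha. A library with more than 200 RPKM (reads scaled by exon length and by library depth) of Star and less than 1000 RPKM of Inha was luteal-high, and a library with at least 1000 RPKM of Inha was follicle-high. Controls 1 and 2 and CTX 1 made up the luteal-high set, and control 3, CTX 2 and CTX 3 made up the follicle-high set, so all 6 of the 6 libraries were assigned. All libraries came from ovaries of C57BL/6 mice aged 8-9 weeks. The 3 control libraries carry the treatment label control, and the 3 CTX libraries the label cyclophosphamide, a DNA-alkylating agent used in chemotherapy that can destroy ovarian follicles. The dose, route and timing of treatment and the stage of the estrous cycle were not given in the sources used here. Whether each library is a different mouse is not stated either, so a p-value over the labels covers the spread among these libraries alone, and that spread may be technical.

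A cycling ovary holds follicles and corpora lutea in proportions that shift over the cycle. In a follicle the oocyte is surrounded by granulosa cells, which divide, make inhibin and anti-Müllerian hormone and turn androgen into estrogen, and by theca cells, which make that androgen. After ovulation the remaining follicle wall becomes a corpus luteum, whose cells stop dividing, take up and make cholesterol and turn it into progesterone under luteinizing hormone and, in rodents, prolactin.

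Because the sets were drawn from measured values, the luteal-high against follicle-high comparison is a description. It has no p-value and no mean or SD over a set. Values below are given in the order control 1, control 2, CTX 1 for the luteal-high set and control 3, CTX 2, CTX 3 for the follicle-high set. Differences between the sets are the middle library of the luteal-high set minus the middle library of the follicle-high set, on the log2(RPKM + 1) scale, which understates differences of low genes. A gene is called separated where the lowest library of one set exceeded the highest library of the other by at least 1 on that scale, a 2-fold step between the nearest libraries. In bulk tissue fewer cells of a type and less RNA per cell cannot be told apart.

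The estimated depth was 15805000 to 22125000 reads per library, and 13629 to 14511 genes reached an RPKM of 1. The kept genes numbered 14535, those with an RPKM of at least 1 in 3 libraries. Since 3 is also the size of a set, a gene could pass through its level in 1 set alone, and counts over kept genes therefore give no support to the division. CTX 1 stood farthest out on the first principal component, which took 68.3% of the variance. It scored 50.1 there, against 18.3 and 27.0 for controls 1 and 2 and −25.6, −34.6 and −35.2 for control 3, CTX 2 and CTX 3. Correlations between libraries over the kept genes were 0.963 to 0.990 within the sets and 0.908 to 0.955 between them.

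Star encodes the protein that carries cholesterol to the inner mitochondrial membrane, the first step of steroid synthesis (chromosome 8, 25806555 to 25815982, GRCm38). Its levels were 543, 532 and 572 RPKM in the luteal-high libraries and 293, 65.8 and 65.0 RPKM in the follicle-high ones. Control 3 thus lay above the Star threshold and was assigned by Inha, and the other two follicle-high libraries were far lower. Inha encodes the alpha subunit of inhibin, a granulosa cell hormone that restrains follicle-stimulating hormone (chromosome 1, 75507077 to 75510366). It measured 722, 586 and 437 RPKM against 1982, 1679 and 1602 RPKM, so that control 1 was the nearest library below the threshold of 1000 and CTX 3 the nearest above it, with the sets 2.22-fold apart at their closest. Cyp11a1, the side-chain cleavage enzyme that makes pregnenolone, was at 1947, 2148 and 2801 RPKM against 782, 801 and 810 RPKM (chromosome 9, 58006411 to 58027023). Gdf9, a growth factor secreted by oocytes, was at 30.8, 25.01 and 17.7 RPKM against 56.3, 66.7 and 64.3 RPKM (chromosome 11, 53431023 to 53437904). All 4 markers kept the sets apart without overlap, Star and Gdf9 by less than the 2-fold step. Inha could not overlap, since its threshold made the sets, and Star was part of the rule as well. Dividing the libraries at the largest gap in Cyp11a1 or in Gdf9 gave the same sets. That division reads the same libraries, so it is a description and gives no support to the sets.

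**Figure D1:**
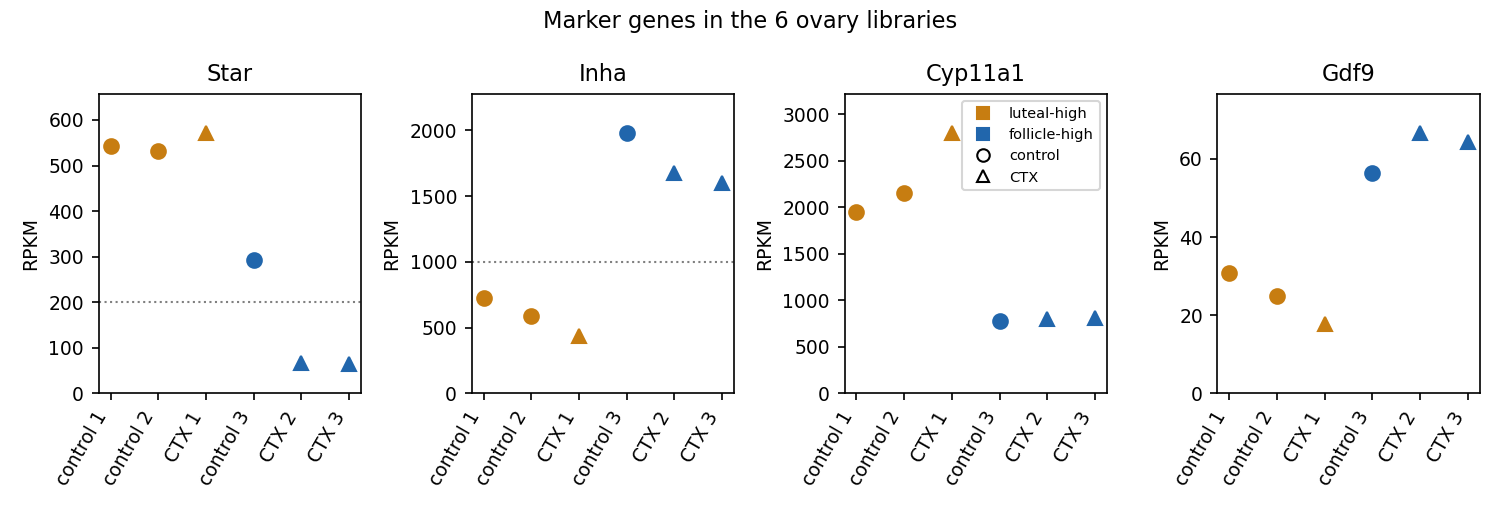
RPKM of the 4 marker genes (vertical axes, each from 0) in each library (horizontal axis), with colour for the set and shape for the treatment label. Dotted lines are the thresholds of 200 RPKM for Star and 1000 RPKM for Inha. Control 3, at 293 RPKM, is the follicle-high library with Star above its threshold.

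Of the 14535 genes, 184 were separated with the luteal-high libraries above (1.27%) and 102 with the follicle-high libraries above (0.702%). These counts belong to the contrast that chose the sets, and nothing is read from them. Without the 2-fold step, 2402 genes had all luteal-high libraries above all follicle-high ones (16.5%) and 4497 genes the reverse (30.9%). Over all kept genes the median difference was −0.08, with quartiles of −0.31 and 0.15; 40.1% of the genes were higher and 59.6% lower in the luteal-high set. These shares stand beside the list counts below, and no list was tested. Trimmed-mean scaling, which uses a common factor per library, gave 216 and 73 separated genes, and quantile normalization gave 214 and 81, so the split between directions moved with the scaling. Leaving out control 3 gave 249 and 255 separated genes, and leaving out control 1 gave 239 and 220. Control 3 was the follicle-high library nearest to the luteal-high set in 105 of the 184 genes and 77 of the 102. CTX 1 was the luteal-high library farthest from the follicle-high set in 111 of 184 and 64 of 102, and control 1 in 9 and 8.

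The division could also be read within each treatment label, with the libraries that chose the sets. The difference of controls 1 and 2 from control 3 was compared with that of CTX 1 from CTX 2 and 3, which share no library. Across the 14535 genes, which are not independent replicates, Pearson's r was 0.66, as a description. A difference of at least 1 in favour of the luteal-high libraries was present in 360 genes among the controls and 698 among the CTX libraries, and 259 genes met it in both. The corresponding numbers in favour of the follicle-high libraries were 338, 1178 and 225. Genes that passed 1 in opposite directions numbered 13 and 7. The typical size of the difference was larger among the CTX libraries, with a median of 0.41 against 0.22 among the controls.

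**Figure D2:**
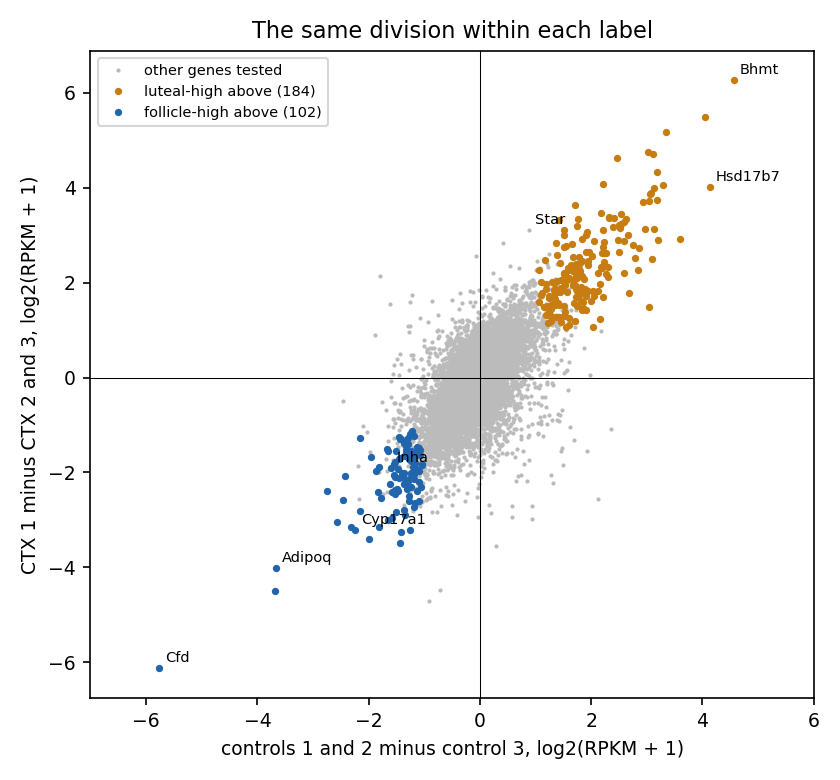
Difference between luteal-high and follicle-high libraries within the controls (horizontal axis) and within the CTX libraries (vertical axis), both in log2(RPKM + 1), for 14535 genes. Coloured points are the 184 and 102 separated genes, whose place follows in part from how they were chosen; they lie to the upper right and the lower left.

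Genes of progesterone synthesis and of luteal hormone receptors were higher in the luteal-high libraries. Of the 17 listed, 15 were measured above the filter (not Akr1b7 and Pgr), 14 differed in that direction (40.1% of all kept genes did), 12 without overlap (16.5%) and 7 separated (1.27%). The list's median difference was 1.22, against −0.08 over all kept genes. The largest difference among them was that of Hsd17b7, an enzyme abundant in the rodent corpus luteum that reduces estrone to estradiol and also takes part in cholesterol synthesis. Hsd17b7 was at 174, 270 and 176 RPKM against 11.5, 9.58 and 10.3 RPKM, and the nearest libraries of the sets differed 15.2-fold (chromosome 1, 169949535 to 169969241). Lhcgr, the receptor for luteinizing hormone, was at 265, 501 and 308 RPKM against 43.7, 111 and 108 RPKM, with control 3 the lowest library. Prlr, the prolactin receptor, was at 51.3, 63.0 and 48.8 RPKM against 19.2, 15.9 and 17.0 RPKM. Every luteal-high library was thus above every follicle-high one for both receptors. Ptgfr, which receives the prostaglandin signal for luteal regression, was at 73.9, 107 and 102 RPKM against 12.3, 14.1 and 13.9 RPKM; a gene annotated on the opposite strand, Gm43618, shares 329 exonic bases with it, and whether strand was used in counting was not given in the sources used here. Akr1c18, the enzyme that inactivates progesterone, was at 120, 90.2 and 150 RPKM against 29.3, 38.5 and 41.0 RPKM. Hsd3b1, which makes progesterone from pregnenolone, was the most abundant member, at 4367, 4489 and 5397 RPKM against 2879, 2030 and 1894 RPKM. Its sets did not overlap, with the nearest libraries 1.52-fold apart, so it was not separated by the 2-fold step.

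Genes for making cholesterol were higher in the luteal-high libraries almost throughout the pathway. All 21 listed enzymes of cholesterol synthesis were kept, 19 had all luteal-high libraries above all follicle-high ones (16.5% of all kept genes did), and 12 were separated (1.27%). The median difference was 1.70. Hmgcs1, which makes the HMG-CoA from which the pathway starts, was at 361, 294 and 607 RPKM against 85.0, 67.3 and 75.7 RPKM; its exons share 557 bases with the opposite-strand gene Gm48342. Dhcr7, the last enzyme on the way to cholesterol, was at 54.5, 63.6 and 112 RPKM against 12.0, 12.5 and 11.5 RPKM. In both of these genes CTX 1 was the highest library. The sets overlapped for Ggps1, which diverts isoprenoids to geranylgeranyl groups. It was at 21.2, 18.5 and 13.2 RPKM against 19.02, 17.6 and 18.6 RPKM. Sc5d, the most abundant enzyme that was not separated, was at 67.7, 67.3 and 81.7 RPKM against 39.1, 59.2 and 58.7 RPKM.

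**Figure D3:**
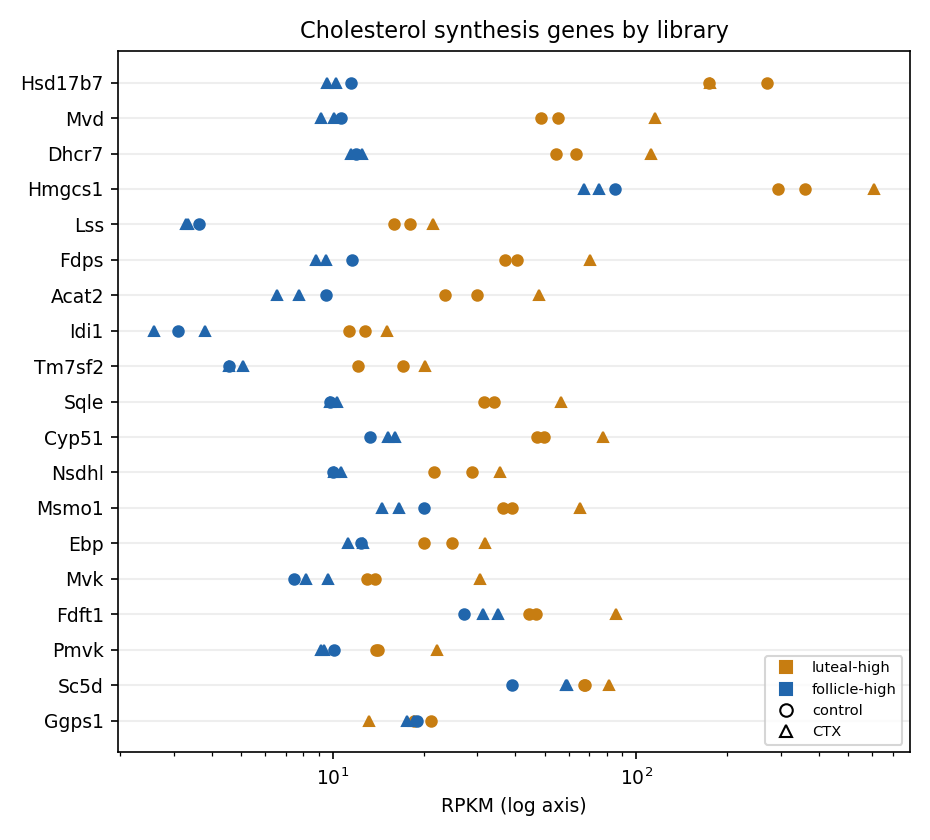
RPKM (log axis) of 19 of the 21 cholesterol synthesis genes in the 6 libraries, with colour for the set and shape for the treatment label, ordered by the difference between the sets. From Hsd17b7 at the top to Sc5d no luteal-high point overlaps a follicle-high one, while the sets overlap for Ggps1; Hsd17b7 spans 9.58 to 270 RPKM.

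Promoter windows of Hmgcs1 and Hsd17b7 are shown because Hmgcs1 is among the most abundant separated genes of the cholesterol list and Hsd17b7 has its largest difference, and that of Zp3 because it stands for the oocyte genes on the follicle-high side. They are the 250 bases before the start site in RefSeq on GRCm38.p6, read 5′ to 3′ on the gene's strand. Capitals mark a sterol regulatory element (letters CACNCCAC) in Hmgcs1 at chr13:119690101-119690350, plus strand, and E-boxes (letters CANNTG) in Hsd17b7 at chr1:169969206-169969455, minus strand, and in Zp3 at chr5:135979855-135980104, plus strand.
Hmgcs1: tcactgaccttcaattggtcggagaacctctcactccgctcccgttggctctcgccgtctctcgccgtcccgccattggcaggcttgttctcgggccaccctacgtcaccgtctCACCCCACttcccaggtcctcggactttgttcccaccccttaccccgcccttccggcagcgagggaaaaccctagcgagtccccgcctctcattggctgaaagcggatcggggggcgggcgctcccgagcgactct
Hsd17b7: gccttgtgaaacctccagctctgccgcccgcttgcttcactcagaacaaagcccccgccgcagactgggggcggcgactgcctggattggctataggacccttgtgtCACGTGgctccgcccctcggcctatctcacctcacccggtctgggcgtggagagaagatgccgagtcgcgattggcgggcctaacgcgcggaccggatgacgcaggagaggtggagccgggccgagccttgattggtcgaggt
Zp3: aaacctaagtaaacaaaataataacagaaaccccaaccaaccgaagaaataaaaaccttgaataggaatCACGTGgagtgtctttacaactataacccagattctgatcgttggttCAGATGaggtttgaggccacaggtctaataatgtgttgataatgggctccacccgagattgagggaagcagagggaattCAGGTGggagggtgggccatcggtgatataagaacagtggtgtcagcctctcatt
The Hmgcs1 match began 136 bases before the start site, the Hsd17b7 E-box 143 bases before it, and the Zp3 E-boxes 181, 134 and 55 bases before it. In Zp3 the first E-box also overlapped a reverse-strand match of the sterol letters.

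Both strands of the RefSeq windows, each 300 bases from 250 before to 50 after a start site, were searched for these letters and for the NR5A half-site (CAAGGNCA) of the steroidogenic factor family. A window was found for 203 of the 286 separated genes. The sterol element letters were in 18 of 183 windows of genes with luteal-high above (9.84%), in 6 of 76 with follicle-high above (7.89%), in 2 of 19 of the cholesterol synthesis list (10.5%) and in 2050 of all 32851 windows (6.24%). The share was higher in the granulosa list, 4 of 27 windows (14.8%), and lower in the maternal-effect oocyte list, 2 of 37 (5.41%). NR5A letters were in 8.20% and 6.58% of the windows of the 2 directions and in 6.71% of all, with 4 of 27 in the granulosa list (14.8%), 1 of 19 in the cholesterol synthesis list (5.26%) and 2 of 37 in the oocyte list (5.41%). E-box letters were in 72.1%, 75% and 72.3%. They were in 21 of 27 windows of the granulosa list (77.8%), 15 of 19 of the cholesterol synthesis list (78.95%) and 32 of 37 of the oocyte list (86.5%). These shares describe letters only, and a match is not a site.

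Cholesterol uptake and delivery genes were mostly higher in the luteal-high libraries too. Of 21 listed 20 were kept, 16 differed in that direction (40.1% of all kept genes did) and 4 were separated (1.27%), with a median of 0.48. Scarb1, the high-density lipoprotein receptor that supplies luteal cells, was at 183, 220 and 290 RPKM against 32.6, 63.3 and 60.8 RPKM. Npc2, which moves cholesterol out of lysosomes, was at 134, 155 and 234 RPKM against 63.0, 57.0 and 60.4 RPKM. The sets did not overlap for either. Lrp8, a receptor for lipoproteins and reelin, was also separated, at 19.5, 14.2 and 21.3 RPKM against 1.26, 1.55 and 1.51 RPKM. Apoe, a lipoprotein constituent and the most abundant member, overlapped at 665, 558 and 588 RPKM against 602, 431 and 446 RPKM.

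Lipid droplet genes divided among themselves. Of 16 listed 14 were kept (not Cidea and Cideb), and 8 were higher and 6 lower in the luteal-high set. Over all kept genes 40.1% were higher and 59.6% lower. The median of 0.05 lay close to 0 (0.23 without control 1 and 0.22 without control 2). Plin4, a droplet coat protein, was at 157, 216 and 190 RPKM against 18.0, 10.9 and 9.90 RPKM. Plin5, a coat protein that links droplets to mitochondria, was at 30.9, 37.0 and 84.6 RPKM against 2.43, 1.55 and 1.21 RPKM. Both were among the 10 protein-coding genes farthest apart with the luteal-high set above. Cidec, which fuses droplets in fat cells, went the other way, at 0, 0 and 0.09 RPKM against 3.98, 8.15 and 9.18 RPKM. Plin3 was level, at 47.0, 46.0 and 59.2 RPKM against 47.0, 46.0 and 43.9 RPKM.

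Luteal signalling and vascular factors were also mostly above in the luteal-high libraries, in 15 of 19 kept genes of 23 listed (40.1% of all kept genes were). Of them 6 were separated (1.27%), and the list's median was 0.60. The median was 0.34 without control 2 and 0.38 without control 1. Sfrp4, a secreted modulator of WNT signalling, was at 579, 1022 and 798 RPKM against 106, 176 and 154 RPKM. Lgmn, a lysosomal protease, was at 197, 256 and 302 RPKM against 70.2, 74.5 and 70.5 RPKM. Vegfa, the main growth factor for new vessels, was at 95.5, 102 and 94.2 RPKM against 36.0, 37.1 and 39.9 RPKM. All 3 had the sets well apart, and Vegfa varied little within either. Idh1, which makes cytosolic NADPH, was at 754, 894 and 1115 RPKM against 239, 186 and 199 RPKM. It was the separated member of the NADPH and antioxidant list, where 21 of 29 genes were above in the luteal-high set (median 0.46). Of all kept genes 40.1% were above. Gpx3, a secreted glutathione peroxidase and the most abundant other member, was at 543, 574 and 511 RPKM against 355, 305 and 298 RPKM. Rgcc, a cell cycle regulator of vessels and the most abundant luteal signalling gene short of the 2-fold step, was at 89.8, 99.7 and 165 RPKM against 46.8, 31.9 and 35.2 RPKM.

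The remaining protein-coding genes farthest apart with the luteal-high set above came from other functions. Bhmt, which remethylates homocysteine with betaine, was at 35.5, 29.3 and 79.1 RPKM against 0.41, 0.04 and 0.04 RPKM, the widest gap in this direction at 4.42. A near-identical gene, Gm5096, matches it over 1869 bases at 99.4% identity, and reads may be split between them; Gm5096 was at 12.2, 10.99 and 26.6 RPKM against 0.45, 0.07 and 0.03 RPKM. Mmel1, a membrane metallopeptidase, was at 34.1, 36.8 and 72.4 RPKM against 1.20, 0.71 and 0.57 RPKM. In these genes the follicle-high libraries were near 0 or about 1, with CTX 1 the highest. Runx2, a transcription factor induced in follicles by the ovulatory surge, was at 47.9, 55.0 and 53.7 RPKM against 5.18, 2.79 and 2.62 RPKM, with 519 exonic bases shared with the opposite-strand Runx2os1. Cish, a feedback inhibitor of cytokine receptors and a target of STAT5, was at 39.4, 42.0 and 36.5 RPKM against 2.44, 4 and 3.86 RPKM, with opposite-strand genes Gm17040 and Gm17041 over part of its exons. Rab27a, a small GTPase of secretory vesicles, was at 52.9, 71.2 and 70.7 RPKM against 6.16, 3.32 and 3.74 RPKM. For Runx2 and Rab27a control 3 was the highest of the follicle-high libraries, and for Cish it was the lowest. Wisp2, a secreted matricellular protein, was at 49.1, 73.8 and 104 RPKM against 5.73, 4.83 and 3.73 RPKM.

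Granulosa cell genes were higher in the follicle-high libraries. All 28 listed genes were kept, 27 differed in that direction (59.6% of all kept genes did), 24 without overlap (30.9%) and 8 separated (0.702%), with a median of −1.28. Amh, anti-Müllerian hormone of growing follicles, was at 42.1, 89.8 and 39.4 RPKM against 161, 264 and 256 RPKM. Fshr, the receptor for follicle-stimulating hormone, was at 4.83, 4.09 and 4.03 RPKM against 13.0, 21.3 and 20.3 RPKM. Cyp19a1, the aromatase that makes estrogen, was at 5.77, 3.96 and 0.53 RPKM against 8.51, 32.8 and 33.9 RPKM. In all 3 genes control 3 was the lowest follicle-high library, and for aromatase it lay near control 1. Serpine2, a protease inhibitor, was at 39.8, 37.7 and 28.1 RPKM against 115, 102 and 102 RPKM. Gja1, the gap junction protein that couples granulosa cells, was abundant but less far apart, at 475, 473 and 305 RPKM against 740, 773 and 831 RPKM. Bex4 was at 94.0, 62.6 and 78.7 RPKM against 208, 191 and 198 RPKM, and near-identical copies such as Gm12245 make its reads uncertain.

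Among transcription factors of ovarian identity the list did not move as a whole. Of 27 kept genes 10 were above in the luteal-high set and 17 below (40.1% and 59.6% of all kept genes were). The median was −0.14 (−0.37 without control 1 and −0.04 without CTX 1). Foxl2, which maintains granulosa identity, was level at 90.3, 91.1 and 78.9 RPKM against 90.9, 94.0 and 93.5 RPKM. Esr2, the estrogen receptor of granulosa cells, was at 24.9, 14.8 and 10.6 RPKM against 57.2, 62.4 and 62.4 RPKM. Foxo1, a transcription factor of growing granulosa cells, was at 25.8, 18.3 and 15.9 RPKM against 63.1, 86.6 and 84.5 RPKM, with 674 exonic bases shared with Gm20402. Esr2 and Foxo1 were separated while Foxl2 overlapped. Nr0b1, a repressor of steroid synthesis, was the other separated factor on this side, at 3.82, 2.40 and 2.68 RPKM against 8.89, 8.66 and 8.91 RPKM. Nr5a1, a driver of steroid enzyme genes, was at 54.1, 57.0 and 47.9 RPKM against 95.2, 107 and 107 RPKM, on the opposite side from Star and Cyp11a1.

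Oocyte genes were nearly all higher in the follicle-high libraries. For the zona pellucida and growth factor list, 11 of 12 genes were kept (not Fgf8), and all 11 had every follicle-high library above every luteal-high one (30.9% of all kept genes did), with 3 separated (0.702%) and a median of −1.09. Zp3, a sperm-binding glycoprotein of the zona, was at 25.3, 22.9 and 20.2 RPKM against 58.3, 63.4 and 58.1 RPKM. Zp2, its partner, was at 28.0, 22.9 and 15.7 RPKM against 57.6, 62.0 and 63.1 RPKM. Bmp15, the growth factor that acts with Gdf9, was at 7.10, 7.27 and 3.73 RPKM against 16.4, 20.3 and 21.6 RPKM. CTX 1 was the lowest library for all 3. Of 34 maternal-effect and cytoplasmic oocyte genes 33 were kept (not Oog1), 31 were above without overlap (30.9% of all kept genes were) and 7 were separated (0.702%), with a median of −1.03. Padi6, needed for the cytoplasmic lattices, was at 30.9, 27.5 and 19.6 RPKM against 65.8, 81.3 and 75.3 RPKM. H1foo, the oocyte linker histone, was at 16.6, 12.2 and 12.0 RPKM against 34.7, 40.0 and 44.3 RPKM. Npm2, an oocyte nucleoplasmin, was at 12.8, 12.1 and 9.73 RPKM against 27.5, 33.3 and 30.9 RPKM. Zbed3, an abundant member, was not separated, at 56.1, 56.3 and 36.5 RPKM against 99.1, 111 and 111 RPKM. Among 10 oocyte transcription factors 6 were kept (not Sohlh1, Sohlh2, Tbpl2 and Sall4), of which Nobox was at 4.90, 5.36 and 2.55 RPKM against 9.15, 9.57 and 10.3 RPKM.

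Most genes of the theca and interstitial list, with targets of the granulosa signal that reaches theca, were higher in the follicle-high libraries as well. The list also holds general connective tissue genes such as Dcn, Lum and Col1a1, so its counts are not those of theca cells alone. Of 20 listed 19 were kept (not Hsd3b6), 18 differed in that direction (59.6% of all kept genes did), 14 without overlap (30.9%), with a median of −0.85. Cyp17a1, the enzyme that makes androgen, was at 20.2, 6.78 and 24.1 RPKM against 59.9, 239 and 224 RPKM (chromosome 19, 46667165 to 46673172). Control 3 lay between the luteal-high libraries and the other two follicle-high ones. Dhh, the hedgehog ligand that granulosa cells send to theca, was at 7.63, 7.23 and 4.29 RPKM against 18.5, 18.4 and 18.9 RPKM. It was counted in the granulosa list. Gli1, a transcription factor and target gene of that signal, was at 8.77, 9.37 and 7.25 RPKM against 22.5, 19.4 and 18.3 RPKM. Neither gene showed control 3 between the sets. Insl3, a theca hormone, overlapped at 9.27, 7.38 and 16.9 RPKM against 13.2, 18.0 and 17.8 RPKM, and shares 404 of its 623 exonic bases with Jak3. Aldh1a1, an aldehyde dehydrogenase and the most abundant listed gene, was at 883, 816 and 643 RPKM against 1218, 1342 and 1366 RPKM. Ephx2, an epoxide hydrolase put on this list, went the other way, at 600 and 644 RPKM in controls 1 and 2, 917 in CTX 1 and 207, 184 and 183 RPKM in the follicle-high libraries.

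All 34 genes of DNA replication and cell division were lower in the luteal-high libraries, 33 without overlap, with a median of −0.74. Over all kept genes 59.6% were lower there and 30.9% without overlap. Cdc20, an activator of the anaphase-promoting complex, was the separated member, at 11.3, 12.3 and 12.2 RPKM against 29.0, 28.1 and 27.5 RPKM. Mki67, a protein of dividing cells, was at 7.25, 8.80 and 6.43 RPKM against 13.7, 13.4 and 13.1 RPKM. Pcna, the sliding clamp of DNA replication, overlapped at 41.6, 44.4 and 53.3 RPKM against 54.4, 46.9 and 48.0 RPKM, and has the near-identical copy Pcna-ps2. Genes that restrain the cell cycle were split, with 8 above and 8 below in 16 kept genes of 17 (not Cdkn2a). Of all kept genes 40.1% were above and 59.6% below. Of the 16, 6 were free of overlap with the luteal-high set above (16.5% of all kept genes) and 3 with the follicle-high set above (30.9%). Cdkn1b, an inhibitor of cyclin-dependent kinases needed for luteal cells to leave the cycle, was at 139, 130 and 144 RPKM against 95.4, 49.9 and 57.7 RPKM. Cdkn2b, another such inhibitor, was at 9.92, 12.3 and 17.5 RPKM against 2.61, 4.03 and 4.01 RPKM.

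Most genes of cumulus expansion and ovulation were under the filter, with 9 of 19 kept. The 10 not kept were Ptgs2, Has2, Tnfaip6, Areg, Ereg, Btc, Pgr, Edn2, Snap25 and Il6. Of the 9, 3 were separated with the luteal-high set above, Lhcgr, Runx2 and Cited4 (1.27% of all kept genes were). Each is also counted on another list: Lhcgr among luteal receptors, Runx2 among ovarian transcription factors and Cited4 among luteal signalling factors. The 643 list entries hold 606 genes, so list counts are not independent. Which cells carried these transcripts was not tested. Cited4, a transcriptional coactivator partner, was at 46.9, 48.4 and 105 RPKM against 17.1, 10.7 and 8.52 RPKM. The list's median of 0.70 became 0.02 without the filter.

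Members of the TGF-beta family and its mediators were split, with 10 above and 19 below in the luteal-high set (median −0.28). Over all kept genes 40.1% were above and 59.6% below, so nothing is read from these counts. Id2, an inhibitor of differentiation factors, was at 234, 221 and 180 RPKM against 67.1, 62.9 and 62.6 RPKM. Bmp3 was at 3.54, 2.56 and 3.35 RPKM against 9.83, 9.65 and 9.75 RPKM. Smad1, a signal carrier of the bone morphogenetic proteins, was at 18.0, 23.1 and 21.9 RPKM against 8.33, 7.30 and 6.77 RPKM. The sets were apart for each, in different directions. Id3, a relative of Id2, overlapped at 70.1, 63.8 and 103 RPKM against 83.9, 87.0 and 88.7 RPKM.

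Genes of energy metabolism and protein synthesis had list medians nearer to 0. Nuclear genes of oxidative phosphorylation were above in the luteal-high set for 39 of 42 (40.1% of all kept genes were). Of the 42, 20 were free of overlap (16.5% of all kept genes were) and none was separated. Their median of 0.16 became 0.42 without control 1 and 0.40 without control 2. CTX 1 was the high library here, as for Cox6a1, a subunit of cytochrome oxidase, at 334, 400 and 653 RPKM against 281, 270 and 276 RPKM. Ribosomal protein genes had a median of −0.17 with no member free of overlap, and the direction turned to 0.05 without control 1 and 0.08 without control 2. Glycolysis and lactate genes had a median of −0.08, which trimmed-mean scaling turned to 0.003 and quantile normalization to 0.04, and which was 0.10 without control 1 and 0.03 without control 2. Mitochondrially encoded genes had a median of −0.11, or −0.23 without control 1, −0.24 without control 2, −0.17 without CTX 3, −0.05 without CTX 2 and −0.02 with trimmed-mean scaling. The most abundant member of each of these lists overlapped or nearly did. Rplp1, a ribosomal stalk protein with the near-identical Gm10073, was at 1121, 1199 and 2143 RPKM against 1319, 1650 and 1272 RPKM. Pkm, pyruvate kinase, was at 252, 282 and 379 RPKM against 202, 231 and 219 RPKM. It matches Gm6560 over 1593 bases at 98.4% identity and shares 767 exonic bases with Gm49759 on the same strand. mt-Co1, a cytochrome oxidase subunit with nuclear copies, was at 8131, 7425 and 5288 RPKM against 8729, 7948 and 8204 RPKM, with CTX 1 the lowest library.

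**Figure D4:**
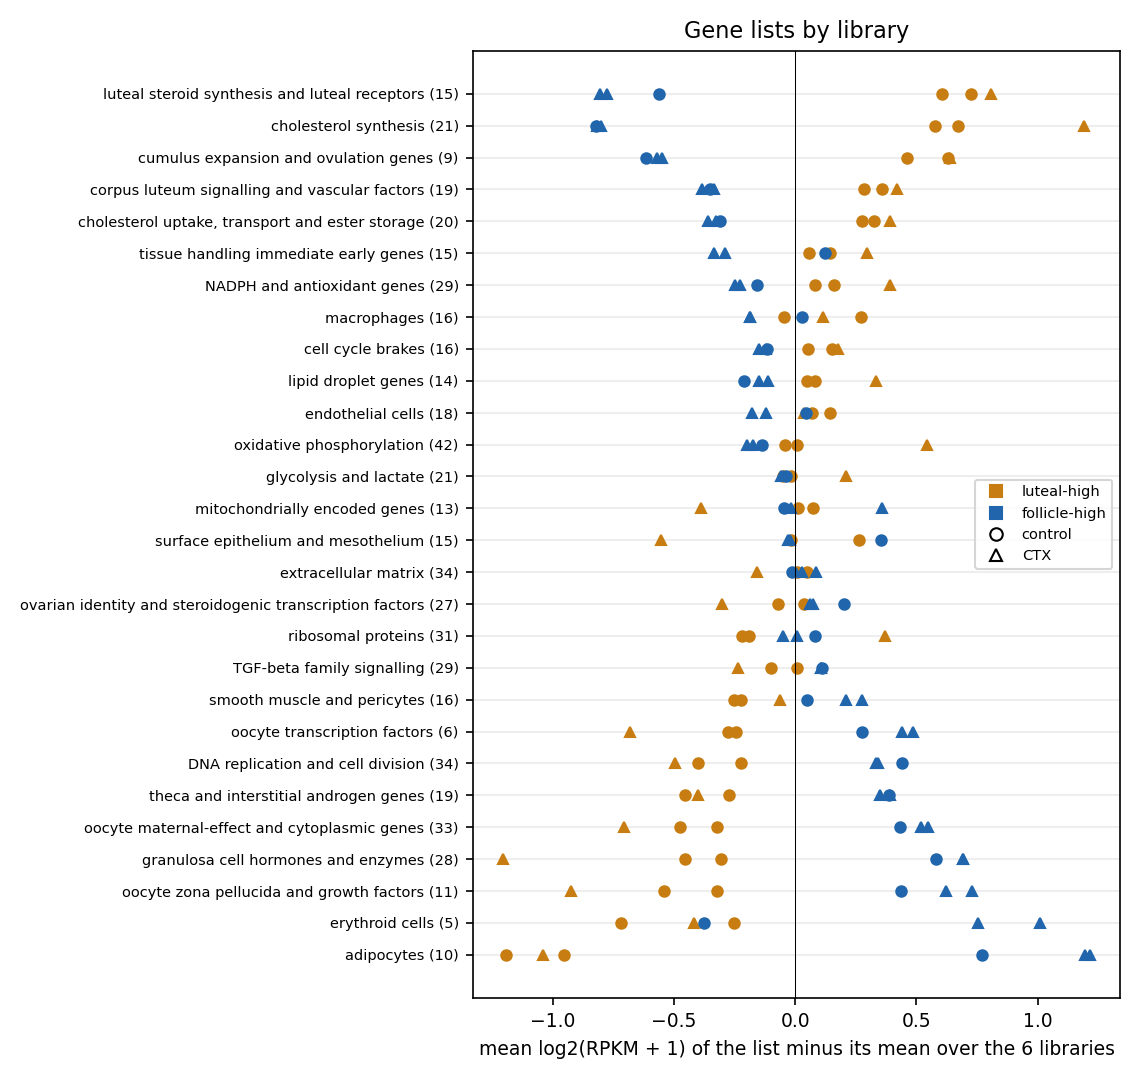
Mean log2(RPKM + 1) of each gene list in each library minus the list's mean over the 6 libraries (horizontal axis), for lists with at least 5 kept genes (their number in brackets), with colour for the set and shape for the treatment label. Luteal and cholesterol lists have the luteal-high libraries to the right and oocyte, granulosa and dividing-cell lists to the left, while for oxidative phosphorylation and ribosomal proteins CTX 1 stands apart from the other 5 libraries.

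Markers of cells other than luteal, granulosa, theca and oocyte also differed between the sets. Adipocyte genes showed the widest difference, with 9 of 10 kept genes higher in the follicle-high libraries (59.6% of all kept genes were) and 6 of them separated (0.702%). Their median was −2.90, or −1.62 without the filter. Lep, Pck1, Acvr1c and Ucp1 were not kept, and Ucp1 was at 0 in all follicle-high libraries. Cfd, the complement factor adipsin of fat cells, was at 1.63, 0.07 and 0.48 RPKM against 90.8, 109 and 97.1 RPKM, the widest gap of any protein-coding gene (5.13). Adipoq, the fat cell hormone adiponectin, was at 0.27, 0 and 0.08 RPKM against 13.3, 17.3 and 15.5 RPKM. Retn, which encodes resistin, was at 0.16, 0 and 0.07 RPKM against 5.36, 7.79 and 8.00 RPKM. All 3 were at or near 0 in the luteal-high libraries and present in each follicle-high one, control 3 included. Car3, a carbonic anhydrase of fat and muscle, was at 1.45, 0.99 and 0.96 RPKM against 27.4, 43.6 and 42.7 RPKM. Fabp4, a fatty acid binding protein of fat cells, was at 1.82, 0.62 and 1.23 RPKM against 8.54, 15.2 and 14.1 RPKM. Plin4 went the other way, and Pparg differed in the list's direction (−0.33) but overlapped. Plin4 made up most of the list's summed level in the luteal-high set, so the sums overlapped, at 193 to 250 RPKM against 211 to 279 RPKM. Pparg, the fat cell transcription factor also made by granulosa cells, was at 13.9, 17.6 and 19.8 RPKM against 16.3, 23.4 and 22.5 RPKM. The part of fat tissue around the ovary in the other differences was not tested.

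Among the 10 protein-coding genes farthest apart with the follicle-high set above were also a pair of homeobox genes of the posterior body plan. Hoxc10 was at 0, 0.10 and 0 RPKM against 4.80, 5.17 and 4.89 RPKM (chromosome 15, 102966796 to 102971893), and its neighbour Hoxc9 was at 0.03, 0.10 and 0.34 RPKM against 6.13, 5.78 and 6.19 RPKM (102976439 to 102985099). Both genes were steady within the follicle-high set. Hoxc10 shares 166 of its 1909 exonic bases with Hoxc5 on the same strand. Thbs4, a matrix glycoprotein, was at 18.2, 15.4 and 22.4 RPKM against 93.9, 101 and 95.8 RPKM, with the nearest libraries 4.19-fold apart. Slc38a5, an amino acid transporter, was at 13.7, 8.46 and 6.13 RPKM against 45.7, 76.0 and 72.0 RPKM.

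Of 16 smooth muscle and pericyte genes 13 were lower and 3 higher in the luteal-high set (median −0.57, none separated, summed level 732 to 984 RPKM against 1046 to 1255 RPKM). Over all kept genes 59.6% were lower and 40.1% higher there. Acta2, smooth muscle actin, was at 227, 230 and 342 RPKM against 371, 453 and 417 RPKM. Rgs5, a pericyte marker, went the other way without overlap, at 44.9, 44.6 and 41.6 RPKM against 31.0, 19.7 and 21.2 RPKM, as did Notch3, a receptor of pericytes and vascular smooth muscle, at 11.7, 12.7 and 10.6 RPKM against 7.08, 5.94 and 5.61 RPKM. Endothelial genes were above in the luteal-high set for 15 of 18 (40.1% of all kept genes were), none separated, with a median of 0.27. Their sums were 264 to 286 RPKM against 214 to 256 RPKM. Of the 18, 6 were free of overlap in that direction (16.5% of all kept genes) and 2 in the other (30.9%). The mean log2(RPKM + 1) of the list overlapped, with control 3 at 3.543 and CTX 1 at 3.533. Cldn5, an endothelial junction protein, overlapped at 32.7, 34.4 and 39.5 RPKM against 43.0, 29.4 and 29.8 RPKM. Macrophage genes were above for 12 of 16 kept from 17 listed (40.1% of all kept genes were). Their median was 0.43, or 0.25 without CTX 2, with sums of 635 to 806 RPKM against 510 to 598 RPKM. Of the 16, 5 were free of overlap in that direction (16.5% of all kept genes). The mean of this list overlapped too, with control 3 at 4.18 and control 2 at 4.11. Lyz2, a lysozyme of macrophages, was at 318, 228 and 282 RPKM against 178, 189 and 189 RPKM, and shares sequence with Lyz1. Erythroid genes were below for all 5 kept of 9 listed (59.6% of all kept genes were), with sums of 29.7 to 38.4 RPKM against 41.6 to 97.5 RPKM. Control 3 lay near the luteal-high libraries there, with Hbb-bs at 12.1 RPKM, against 10.7, 13.8 and 12.1 RPKM in the luteal-high set and 40.0 and 35.1 RPKM in CTX 2 and 3. Surface epithelium genes had a median of −0.02, and its direction and size moved with the libraries used. It ranged from −0.29 (without control 1) to 0.13 (without CTX 1), with −0.23 without CTX 3, −0.19 without CTX 2, −0.15 without control 2 and 0.03 without control 3, and was 0.03 with trimmed-mean scaling and 0.08 with quantile normalization. Their most abundant member, the retinoic acid enzyme gene Aldh1a2, overlapped at 39.0, 34.2 and 17.0 RPKM against 49.5, 25.5 and 22.6 RPKM. Extracellular matrix genes had a median of −0.05, or −0.09 without control 2, −0.02 without CTX 2 and 0.03 with trimmed-mean scaling. The abundant matrix protein Sparc was at 498, 589 and 683 RPKM against 297, 309 and 293 RPKM.

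Oviduct, lymphocyte and neutrophil lists had 4 of 15, 2 of 14 and 1 of 10 genes above the filter. Sntn and Krt5 of the oviduct list and Ly6g and Elane of the neutrophil list were at 0 in all libraries of both sets. Rsph1, a ciliary gene, was at 4.69, 5.79 and 8.90 RPKM against 1.74, 1.66 and 1.77 RPKM. Tppp3, a tubulin-binding protein of the same list, was at 4.49, 3.96 and 3.55 RPKM against 9.12, 13.9 and 14.9 RPKM. Igkc, the antibody kappa chain, was the most abundant lymphocyte gene, at 9.09, 7.70 and 0.73 RPKM against 11.3, 9.36 and 6.63 RPKM, with CTX 1 the lowest. Ltf, which encodes lactoferrin, was at 3.42, 4.64 and 5.26 RPKM against 0.64, 0.40 and 0.53 RPKM. Genes that respond within minutes to tissue handling were above in the luteal-high set for 12 of 15 kept from 16 listed (median 0.41, or 0.22 without CTX 2). Of all kept genes 40.1% were above. Dusp1, a phosphatase of this response that glucocorticoids also induce, was at 53.4, 47.6 and 73.9 RPKM against 8.68, 6.64 and 6.01 RPKM, while Fos, a transcription factor of the same response, was at 4.03, 2.36 and 4.52 RPKM against 10.2, 13.0 and 11.5 RPKM. Jund, the most abundant of them, was at 53.5, 57.7 and 78.2 RPKM against 52.5, 38.8 and 43.2 RPKM and shares 877 exonic bases with the opposite-strand Gm11175. The part of these cell types and of tissue handling in the other differences was not tested.

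The treatment labels allow a test that does not use the sets. CTX was compared with control in 3 against 3 libraries with limma on log2(RPKM + 1) and Benjamini-Hochberg adjustment over the 14535 genes. No gene passed an adjusted p of 0.05 (0%), the smallest was 0.411, and 501 genes had an unadjusted p under 0.05. No member of any list passed. Slc27a6, a fatty acid transport protein, had the smallest p among genes lower in CTX together with Ppl and Gm37261 (adjusted p = 0.411 in limma for each). Slc27a6 was at 8.74, 8.09 and 7.76 RPKM in controls 1, 2 and 3 and 3.55, 3.38 and 3.36 RPKM in CTX 1, 2 and 3. In these libraries both sets were represented under each label, and the groups did not overlap. Ppl, a desmosomal linker, was at 6.80, 4.74 and 6.54 RPKM in controls 1, 2 and 3 and 1.69, 1.62 and 1.68 RPKM in CTX 1, 2 and 3. The 3 smallest p among genes higher in CTX were those of 1110008P14Rik, Gm25948 and Gm8451 (adjusted p = 0.959 in limma for each).

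With the set of the library as a term in the limma model, 2 genes were called lower in CTX (0.0138%) and 0 higher. The term was taken from the same data, and a model with it leaves 3 residual degrees of freedom. Inhbb encodes the beta B subunit that pairs with the Inha product in inhibin B and with itself in activin B (chromosome 1, 119415465 to 119422248). It was at 92.6, 80.3 and 255 RPKM in controls 1, 2 and 3 and 20.3, 69.0 and 71.1 RPKM in CTX 1, 2 and 3. Within the luteal-high set CTX 1 was below both controls, and within the follicle-high set CTX 2 and 3 were below control 3, while across all libraries the labels came close, with CTX 3 at 71.1 RPKM and control 2 at 80.3 RPKM. The log2 difference was −1.94 ± 0.10 (SE), with an adjusted p of 0.0220 in limma, against 0.426 to 1.00 in the model without the term and its other alternatives. Coro2a, an actin-binding coronin, was at 8.97, 8.16 and 11.8 RPKM in controls 1, 2 and 3 and 2.37, 3.57 and 3.03 RPKM in CTX 1, 2 and 3, again lower within each set. Its log2 difference was −1.54 ± 0.10 (SE), with an adjusted p of 0.0388 in limma, against 0.0948 to 1.00 without the term and under its other alternatives. Both genes rest on 1 CTX library in the luteal-high set and 1 control library in the follicle-high set.

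**Figure D5:**
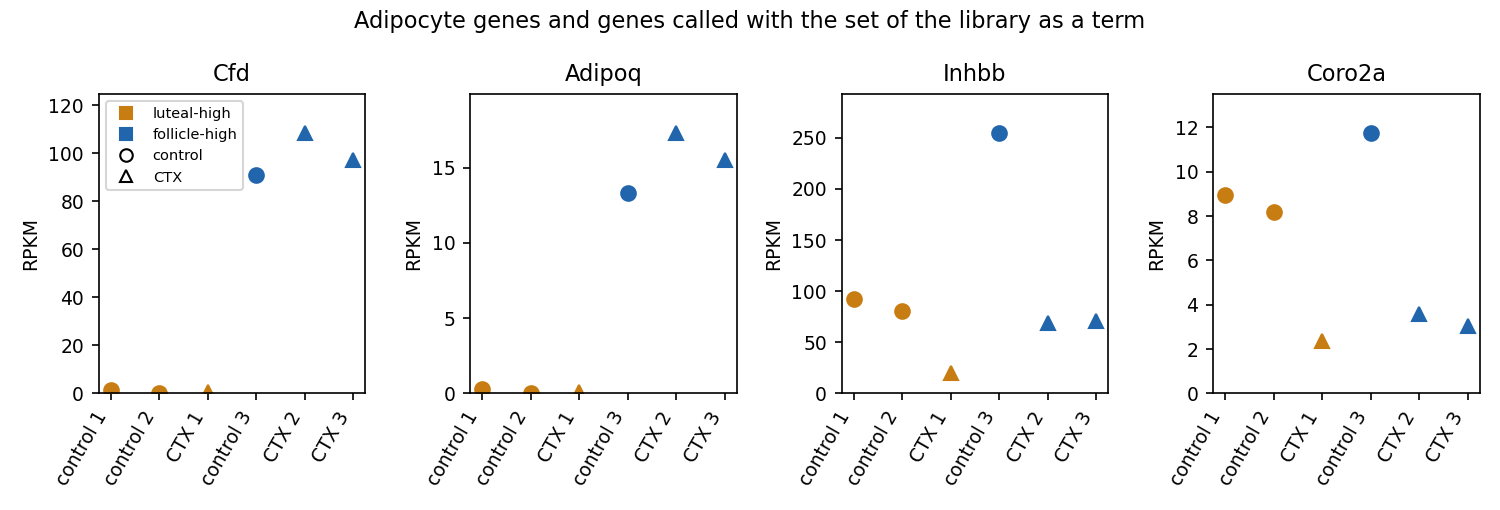
RPKM (vertical axes, each from 0) of the adipocyte genes Cfd and Adipoq and of Inhbb and Coro2a in each library (horizontal axis), with colour for the set and shape for the treatment label. Cfd and Adipoq are near 0 in all 3 luteal-high libraries and 90.8 to 109 and 13.3 to 17.3 RPKM in the follicle-high ones; Inhbb and Coro2a have the CTX libraries below the controls within each set.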

How the data were processed

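RNA of whole ovaries, snap-frozen and extracted with Trizol, was made into Illumina TruSeq libraries and sequenced, per the labels' protocols. Each library's table, as deposited by the authors, lists 46078 genes by symbol and Ensembl identifier with 1 value each. No header states the unit; the deposited values were taken as RPKM from the values themselves, since with exon lengths of GENCODE M21 (45229 identifiers matched) 97.7 to 98.1% of low values fell within 0.2 of a whole read at 1 depth per library. The cases tested were values of up to 15 reads in genes of up to 1000 exonic bases. The submitters' processing notes name Bowtie 0.12.2 and mm10. How reads were counted, with which annotation and on which strand, and what became of reads matching several places, was not given in the sources used here. Depth was estimated at 15805000 to 22125000 reads. Rounding hides the counts of longer genes, so no counting interval is given. No pair of libraries had the same values throughout. CTX 2 and CTX 3 were the closest pair, with a correlation of 0.990 and a median chi-square per gene of 1.48 between approximate read counts. No cut-off was set for calling libraries duplicates, and whether these are technical replicates was not tested.

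Libraries were assigned by Star and Inha as stated in the report. RPKM were used as log2(RPKM + 1) for genes with at least 1 RPKM in 3 libraries (14535). The sets were described by each library's value, the difference of middle libraries and the gap between nearest libraries (Python 3.11.15, pandas 2.3.3). CTX against control was tested two-sided in limma 3.58.1 (R 4.3.3) with a mean-variance trend and Benjamini-Hochberg adjustment. All adjusted p-values come from it, and the procedure was tested on simulated data. For this test the simulation gave every gene the same spread and no division into sets. It therefore cannot show how many genes the test would miss in these libraries.

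The members and the 31 gene lists (643 entries) were chosen with earlier results of these data known. Genes named are the 4 markers, the 10 protein-coding genes with the largest gap in each direction, per list the 3 most abundant separated members, the most abundant one not separated and up to 2 separated against the list's median, and the 3 smallest p in each direction of CTX against control. Picked with their values in view were the further cell type markers (Amh, Fshr, Cyp19a1, Insl3, Prlr, Ptgfr, Akr1c18), Ggps1, Lrp8, Vegfa, Nr0b1, Nr5a1, Dhh, Gli1, Mki67, Rgs5, Notch3, Egr1, Coro2a, Inhbb and those in the closing section. Alternatives were 2 scalings, pseudocounts of 0.1 and 0.5, a filter on the mean RPKM (5 or more) or none, no trend, the replicate number as a block, the set as a term, other separations and assignments, and each library left out. Results for a few members of the lists are not reported here.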

Additional observations from a re-analysis of the deposited data

How the results depend on the processing

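The 53 named genes that were separated kept their direction in all 630 values under the alternatives, and list medians in 357 of 371. For the separated genes this follows largely from how they were chosen, and nothing is read from it. With luteal-high or follicle-high above, the separated genes numbered 259 and 225 with a pseudocount of 0.1, 219 and 142 with 0.5, 139 and 82 at a mean RPKM of at least 5, 2402 and 4497 with any separation, and 42 and 8 with a separation of at least 2 on the log2 scale. With each library left out they ranged from 193 to 249 and from 109 to 255, highest in both cases without control 3. Lists with a positive median numbered 13 of 31 (12 to 16 under the alternatives). With each library left out, the median of the cell cycle brakes ranged from −0.0006 (without control 2) to 0.0836 (without control 3), and the cause was not tested; it was 0.15 with trimmed-mean scaling and 0.14 with no filter or at a mean RPKM of at least 5. Both scalings moved the median of all genes by under 0.1 (0.077 and 0.073). For CTX against control in limma, 0 genes were called higher and 0 lower under both scalings, both pseudocounts, both filters and without trend; the set of the library as a term gave 0 and 2. With each library left out the calls ranged from 0 to 2 higher and 0 to 3 lower, all without CTX 1 (C7 and Slc38a3 higher, Mgst2, Hao2 and Pgbd5 lower, adjusted p = 0.0487 each, which leaves 2 follicle-high libraries in the CTX group). The replicate number as a block gave 0 calls in each direction and 456 unadjusted p under 0.05. Deviations of same-numbered libraries from their label's mean correlated at 0.401, −0.54 and 0.598 for the numbers 1, 2 and 3. Same-numbered libraries were in the same set for 1 and 3 and in different sets for 2. These correlations therefore cannot show whether the numbers pair the samples. Depth limits genes near 1 RPKM, which for 1 kilobase of exon stands for about 16 to 22 reads.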

Other observations

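Of the separated genes, 146 of the 184 with the luteal-high set above and 72 of the 102 with the follicle-high set above were in none of the gene lists. The genes below were chosen after their values were seen, and are given as values in the same order of libraries. Gm2a, an activator protein for lysosomal ganglioside breakdown, was at 411, 544 and 669 RPKM against 94.4, 65.9 and 60.8 RPKM. Sgk1 and Fkbp5, which steroid hormones induce through their receptors in many tissues, were both higher in the luteal-high set. Sgk1 was at 156, 194 and 241 RPKM against 28.3, 23.2 and 24.6 RPKM, and Fkbp5 at 198, 222 and 256 RPKM against 63.0, 57.8 and 57.1 RPKM. Lipg, an endothelial lipase that acts on high-density lipoprotein, was at 102, 121 and 129 RPKM against 11.8, 14.4 and 13.2 RPKM. Acsl4, which activates arachidonic acid, was at 89.8, 103 and 111 RPKM against 19.8, 13.9 and 15.04 RPKM. Mrap, an accessory protein of melanocortin receptors, was at 78.8, 65.6 and 142 RPKM against 19.4, 18.9 and 16.9 RPKM.

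On the follicle-high side Gas6, a ligand of the TAM receptor kinases, was the most abundant, at 307, 301 and 212 RPKM against 721, 873 and 837 RPKM. Hpgd, which breaks down prostaglandins, was at 21.4, 12.7 and 14.1 RPKM against 52.7, 69.8 and 71.6 RPKM. Hsd11b2, which inactivates glucocorticoid, was at 6.71, 12.2 and 8.13 RPKM against 29.2, 46.9 and 48.1 RPKM. Apoa1, the main protein of high-density lipoprotein, was at 8.79, 7.75 and 9.01 RPKM against 24.6, 41.6 and 33.5 RPKM, and Apoa4 was at 19.6, 13.5 and 8.84 RPKM against 53.4, 78.0 and 76.7 RPKM. Hoxd10 was a further posterior homeobox gene, at 2.70, 2.29 and 4.22 RPKM against 14.5, 11.6 and 11.6 RPKM.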
